A study of Mus musculus with 4 samples.

Results

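The genes described here encode the contractile apparatus of smooth muscle and surface or signalling proteins of pericytes, the mural cells wrapped around small blood vessels. The 10 genes Acta2, Tagln, Cnn1, Tpm2, Myl9, Myh11, Mylk, Des, Rgs5 and Cspg4 were chosen by symbol, and every probe set annotated to exactly 1 of them was taken. This gave 23 of the 45037 probe sets, and 10 of the 18193 genes. All 10 genes were measured, and none was removed by a filter. In smooth muscle and pericytes, calcium and calmodulin activate a kinase that phosphorylates the light chain of myosin II, and the myosin then pulls on filaments of alpha smooth muscle actin. Tropomyosin, calponin and transgelin lie along these filaments, and serum response factor with its partner myocardin is known to switch on many of their genes. In bone marrow such genes are known from the walls of arterioles and from stromal cells close to blood vessels.

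RNA came from the bone marrow of adult NOD/SCID mice (strain NOD.CB17-Prkdcscid/J), described as recipients, whose scid mutation blocks the formation of mature B and T cells. All samples carried this genotype, and the labels name no other allele or agent. Cells were sorted as negative for lineage antigens of blood, CD45, CD31 and Sca1 and positive for the integrin chain CD51, a gate the submitters used for osteoblasts. They came from the trabecular bone area or from the long bone area, with 2 arrays per area, called biological replicates. The trabecular arrays are named T1 and T2 here, and the long bone arrays L1 and L2. The labels do not say how many mice gave each sample, so the p-values below measure the spread between these samples, which may be technical.

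Each value is a log2 expression minus the median of its probe set over T1, T2, L1 and L2, so a value of 0 is that median and not absence. L2 stood apart. It held 2493 probe sets 2-fold or more away from this median, where T1, T2 and L1 held 383 to 848. The Gapdh control probe sets, read as 5′ minus 3′ to judge RNA integrity and amplification, gave -1.16 on L2 and -0.09 to 0.31 elsewhere. The same reading of the Actb control did not set L2 apart, at -0.04 there and 0.44, -0.07 and 0.07 on T1, T2 and L1. No level of any gene could be read as 0, and the presence of a cell type could not be tested against absent markers. Of the antigens of the gate, Itgav (CD51) read -0.11 and -0.01 on T1 and T2 and 0.03 and 0.11 on L1 and L2. Ptprc (CD45) read -0.49, -0.10, 0.59 and -0.50 in the same order, and Pecam1 (CD31) read 0.06, -0.08, 0.07 and -0.06. Ly6a (Sca1) was not analysed here. In such sorted bulk samples, fewer cells of a type and less RNA per cell cannot be told apart.

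Contractile and mural genes read highest on 1 of the long bone arrays, and their difference between the areas rested largely on it. As means over each gene's probe sets, 9 of the 10 genes were lower in the trabecular area, against 45.4% of all genes. The median log2 difference, trabecular minus long bone, was -0.57, beside 0.03 over all genes. L2 held the highest value of 8 of the 10 genes, against 35.2% of all genes. There 3 of the 10, Myl9, Tagln and Mylk, lay 2-fold or more above their median (1.69% of all genes). Without that array 5 genes were lower and 5 higher in the trabecular area (41.6% of all genes were lower), and the median was -0.01. Acta2, Myl9, Tagln and Tpm2 read high on L2 and lowest on L1, whereas Cspg4 read higher on both long bone arrays than on either trabecular array.

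No member passed the test between the areas. With limma, a linear model with variances moderated across genes, 0 of 10 member genes had a Benjamini-Hochberg adjusted p under 0.05 (0% of all genes did). At an unadjusted p under 0.05 there was 1 member, Cspg4, and 15.5% of all genes. Adjusted p-values of the members lay between 0.24 and 0.93. The groups did not overlap for 5 members, each lower in the trabecular area (21.4% of all genes did so). These were Cspg4, Rgs5, Mylk, Myh11 and Des. The gap between the long bone arrays was larger than the difference between areas for 7 of the 10 members and for 53.3% of all genes. For 2 arrays against 2, the smallest p of an exact two-sided permutation test is 0.333.

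**Figure D1:**
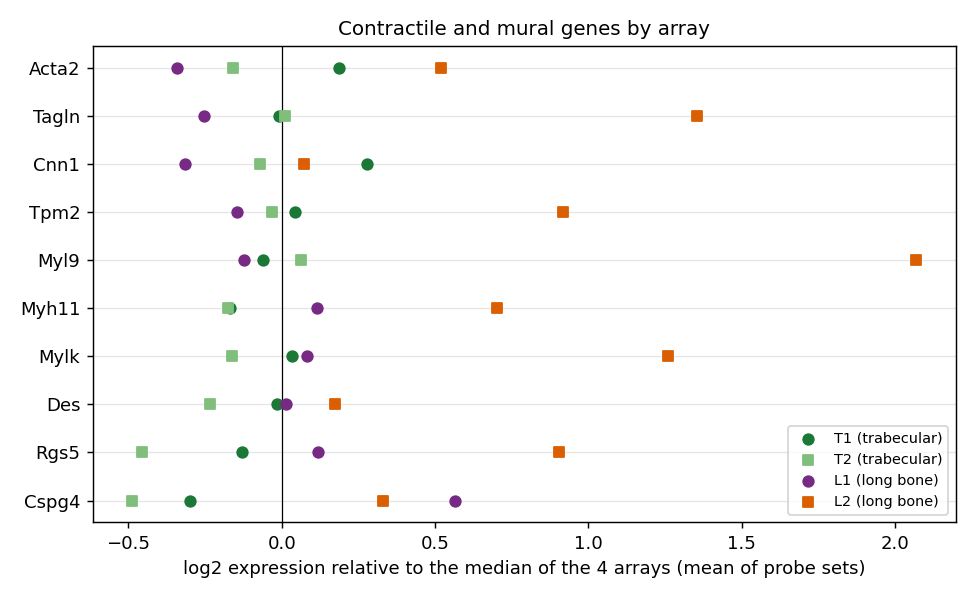
Log2 expression of each gene minus its median over the arrays (horizontal axis, mean over the gene's probe sets), with 1 point per array. L2 (orange squares) is the highest point for 8 genes and reaches 2.07 for Myl9, while Cspg4 has both long bone arrays, at 0.57 and 0.33, above both trabecular arrays.

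Acta2 encodes alpha smooth muscle actin, the thin filament protein that defines smooth muscle and activated pericytes. Its probe set 1416454_s_at read 0.50 and -0.50 on T1 and T2, and -0.66 and 1.47 on L1 and L2. L2 was the highest and L1 the lowest, so the areas overlapped fully. The log2 difference was -0.41 (95% interval -2.65 to 1.84, limma adjusted p = 0.83). The suffix s_at marks probes shared by several transcripts, which in Affymetrix naming may belong to different genes. The other Acta2 probe sets, 1444105_at and 1456658_at, spanned 0.11 and 0.44 over all arrays, against 2.13 for the first. With the 3 averaged the gene differed by -0.07 (-0.95 to 0.80). That difference was 0.36 without L2 and -0.51 without L1, so its sign depended on the array left out.

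The proteins that bind actin filaments gave mixed values. Tagln, the gene of transgelin, an early marker of smooth muscle, has 1 probe set, which read -0.0098 and 0.0098 in the trabecular area and -0.25 and 1.35 in the long bone area. The trabecular arrays agreed to within 0.02, and L2 alone stood high. The log2 difference was -0.55 (-2.01 to 0.91, limma adjusted p = 0.65), and 0.25 without L2. Cnn1, the gene of calponin 1, which slows actin-activated myosin, read 0.28 and -0.07 in the trabecular area against -0.31 and 0.07 in the long bone area. It was the 1 member with a higher trabecular mean (difference 0.23, -0.33 to 0.78, limma adjusted p = 0.63). Its highest value was on T1, not on L2.

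Tpm2 encodes beta-tropomyosin, made in smooth and skeletal muscle. Its probe set 1425028_a_at read 0.05 and -0.05 on the trabecular arrays, -0.07 on L1 and 1.89 on L2. Probe set 1419738_a_at read 0.10, -0.10, -0.48 and 1.84 in the same order. Both put L2 far above the other arrays, and the other arrays within 0.58 of each other. The remaining Tpm2 probe sets, 1419739_at and 1449577_x_at, read -0.24 and 0.18 on that array and spanned 0.30 and 0.24 over all 4. The gene mean differed by -0.38 (-1.38 to 0.61, limma adjusted p = 0.65) and by 0.15 without L2.

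Genes of the smooth muscle myosin and its kinase also read highest on L2. Myl9, the regulatory light chain that the kinase phosphorylates, read -0.06 and 0.06 in the trabecular area, -0.12 on L1 and 2.07 on L2. The last value lay 2.01 above the next highest, and the other 3 arrays lay within 0.18 of each other. The log2 difference of -0.97 had an interval from -2.94 to 0.99 (limma adjusted p = 0.55) and was 0.12 without L2. Mylk, the gene of myosin light chain kinase, had the highest single value of all 23 probe sets, 2.99 for 1425506_at on L2. On T1, T2 and L1 this probe set read -0.14, -0.24 and 0.14.

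The Mylk probe sets disagreed with each other. Probe set 1425505_at read 0.15, -0.15, -0.15 and 0.91 on T1, T2, L1 and L2, and 1425504_at read 0.10, -0.10, 0.25 and -0.12. L2 was thus the highest array on 2 of the 3 Mylk probe sets and the lowest on the third. Averaged, Mylk differed by -0.74 (-1.84 to 0.36, limma adjusted p = 0.44), and by -0.15 without that array. Myh11, the smooth muscle myosin heavy chain and the most restricted marker of mature smooth muscle, read -0.17 on both trabecular arrays, 0.11 on L1 and 0.70 on L2. The areas did not overlap, and its probe sets gave differences of -0.63 and -0.53. The gene differed by -0.58 (-1.19 to 0.03, limma adjusted p = 0.33), which became -0.29 without L2.

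Because actin and myosin light chain genes are textbook targets of serum response factor, the members' promoters were read for its site, the CArG box, and the matches are printed for Acta2 and Myl9, which had them. The box was searched on both strands as CC, then 6 bases of A or T, then GG, with at most 1 departure among the 6. RefSeq promoter windows of GRCm38.p6, from 250 bases before to 50 after each window's reference start, were at hand for 8 of the 10 genes. Tagln and Myh11 had none. Each sequence below is 30 bases on the gene's strand, 5′ to 3′, with the match in capitals. The Acta2 stretches are chr19:34255438-34255467 and chr19:34255388-34255417 on the minus strand, and the Myl9 stretches are chr2:156775293-156775322 and chr2:156775355-156775384 on the plus strand.
Acta2 distal: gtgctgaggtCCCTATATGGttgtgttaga
Acta2 proximal: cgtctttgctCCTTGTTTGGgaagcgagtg
Myl9 distal: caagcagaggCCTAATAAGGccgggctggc
Myl9 proximal: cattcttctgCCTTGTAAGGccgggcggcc
The Acta2 matches begin at -84 and -34 and the Myl9 matches at -161 and -99, counted from the window's reference start. That start minus the listed gene start is -212 bases for Acta2 and 56 for Myl9, so the positions do not count from the gene start. The distal Myl9 match is exact, and the other 3 have 1 departure. The windows of Cnn1, Tpm2, Mylk, Des, Rgs5 and Cspg4 held no match, so 2 of 8 members had one, against 9.98% of all 32851 windows (1.63% for an exact match). The members high on L2 thus included genes with such a match in this window and genes without one.

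Des encodes desmin, the intermediate filament of muscle and of many pericytes. It was the flattest member, at -0.01 and -0.23 on T1 and T2 and 0.01 and 0.17 on L1 and L2. The areas did not overlap, but T1 and L1 lay close together. The difference was -0.22 (-0.61 to 0.17, limma adjusted p = 0.51). Its probe sets differed by -0.35 for 1426732_at and -0.09 for 1426731_at, and on the latter the areas overlapped.

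Rgs5, a regulator of G protein signalling and a common pericyte marker, had the widest range of any member probe set. Probe set 1417466_at read -0.24 and -1.30 on T1 and T2, and 0.24 and 2.71 on L1 and L2. Both trabecular arrays lay below both long bone arrays, with means of -0.77 ± 0.74 and 1.48 ± 1.74 (SD, n = 2 each). The log2 difference was -2.25 (-4.80 to 0.31, limma adjusted p = 0.34). The other Rgs5 probe sets kept the same order of areas, with no overlap, over much narrower ranges of 0.47 to 0.53 and differences between -0.37 and -0.28. The gene mean differed by -0.81 (-1.62 to 0.01, limma adjusted p = 0.33), and by -0.41 without L2. On gene means over the 4 arrays, the 5 genes closest to Rgs5 by Euclidean distance were Ankrd52, Thbd, Rhbdf1, Fermt2 and Ing4, at 0.05 to 0.07. With 4 arrays this likeness is a description only.

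Cspg4, the gene of the NG2 proteoglycan on the surface of pericytes, did not follow L2. Probe set 1423341_at read -0.46 and -0.56 on T1 and T2, and 0.99 and 0.46 on L1 and L2, so L1 was the highest. Probe set 1450944_at read -0.14, -0.41, 0.14 and 0.20 in the same order. The areas did not overlap on either probe set. Averaged, the means were -0.39 ± 0.13 and 0.45 ± 0.17 (SD, n = 2 each), a 1.79-fold lower value in the trabecular area. The log2 difference of -0.84 had an interval from -1.25 to -0.43, the only member interval without 0, and a limma adjusted p of 0.24 over all genes (unadjusted p = 0.0038). It was -0.96 without L2 and -0.72 without L1. NG2 is also carried by cartilage and bone-forming cells, so its gene is not exclusive to pericytes.

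**Figure D2:**
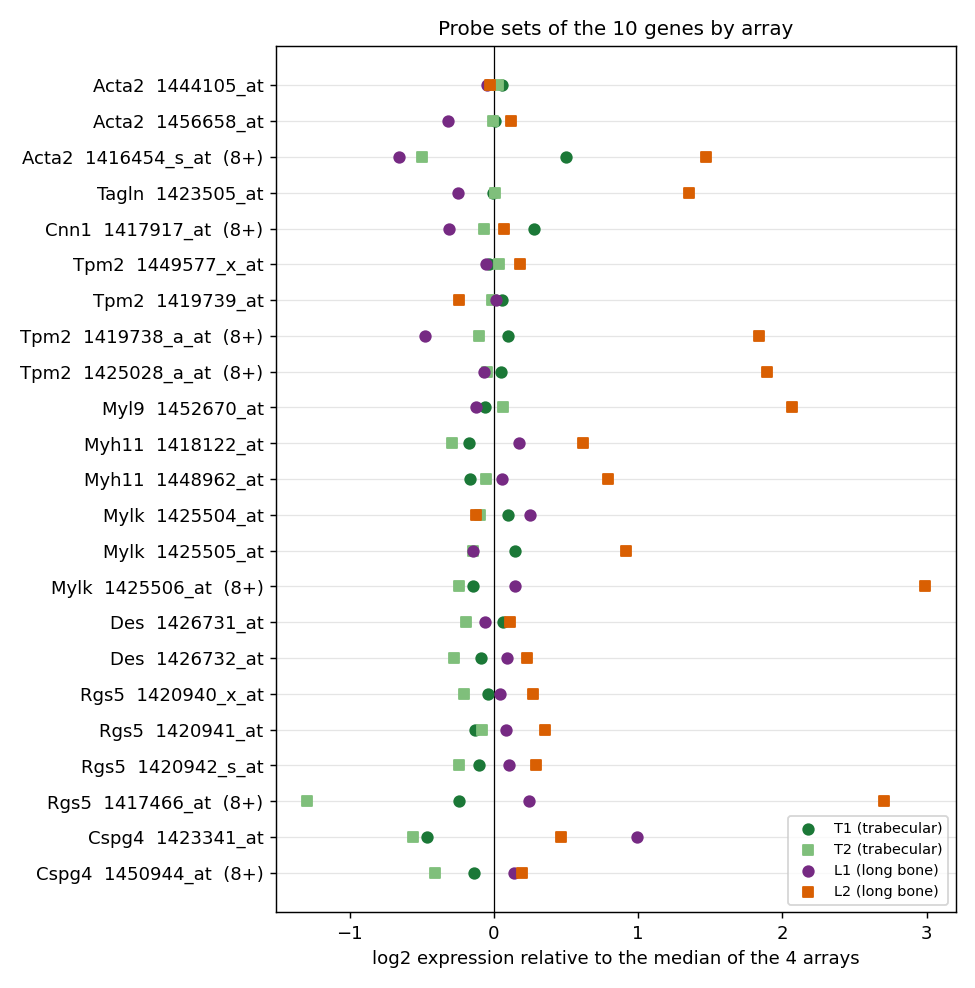
Log2 expression of the 23 probe sets, each minus its median over the arrays, with 1 point per array and probe sets grouped by gene. The mark 8+ stands for digits with the spacing of log2 levels of 8 or above, and 5 of the 7 probe sets so marked read above 1 on L2, among them Mylk 1425506_at at 2.99 and Rgs5 1417466_at at 2.71.

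Probe sets of 1 gene differed most where they also differed in brightness. A number kept in 32 bits has a spacing set by its magnitude, and the spacing that the deposited digits inherit from before centring placed 7 of the 23 probe sets at log2 levels of 8 or above, 15 at 4 to 8 and 1 at 2 to 4. A single reading may be wrong, since a dimmer probe set can happen to show the coarser spacing. The finest spacing on any array sets the reading, so a probe set that reaches 8 on L2 alone is read as dimmer. The 7 brighter ones were 1 each of Acta2, Cnn1, Mylk, Rgs5 and Cspg4 and 2 of Tpm2. Of these, 5 read at least 2-fold above the 4-array median on L2, against 2 of the other 16, those of Myl9 and Tagln. Over all probe sets the share was 2.29%, and 1.78% among the brighter ones. For Acta2, Tpm2, Mylk and Rgs5 the widest range was on a brighter probe set, whereas for Cspg4 it was on the dimmer. Over all 23 probe sets, 10 lay wholly below the long bone values on both trabecular arrays (26.2% of all probe sets) and 1, of Acta2, wholly above (25.9%). At least 2-fold lower with no overlap were 3, of Mylk, Rgs5 and Cspg4 (2.71%). None passed the test, with 0 at a limma adjusted p under 0.05 (0%) and 3 at an unadjusted p under 0.05 (16.3%).

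**Figure D3:**
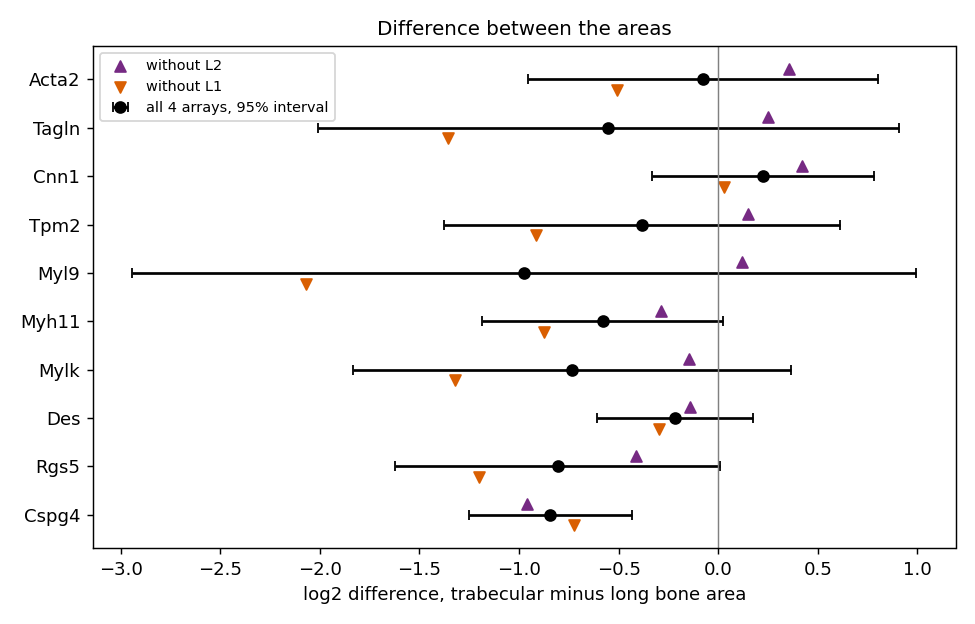
Log2 difference between the areas, trabecular minus long bone (horizontal axis), for each gene, with the 95% interval from limma over all 4 arrays (black) and the value without either long bone array (triangles). Without L2, Acta2, Tagln, Tpm2 and Myl9 turn to between 0.12 and 0.36, while Cspg4 stays at -0.96.

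Leaving out L1 had the opposite effect to leaving out L2. In that fit 6 members had a limma adjusted p under 0.05, each lower in the trabecular area (3.02% of all genes were called lower, and 8.81% in either direction). They were Myl9 at -2.07, Tagln at -1.35, Mylk at -1.32, Rgs5 at -1.20, Tpm2 at -0.91 and Myh11 at -0.87. The fit takes its spread from the trabecular pair and assumes that L2 varies likewise. With all 4 arrays the long bone pair spread over 2.19 for Myl9 and 1.61 for Tagln, against 0.12 and 0.02 for the trabecular pair.

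Counts for other genes of the same machinery differed from list to list. Of 29 measured genes of the smooth muscle contractile apparatus (30 listed), 15 were lower and 14 higher in the trabecular area, with a median difference of -0.0021, and 9 did not overlap in each direction (21.4% of all genes lower, 29.9% higher). Cnn3, an acidic calponin of many cell types, had the lowest difference at -2.07, with -0.79 and -0.63 on the trabecular arrays and 0.59 and 2.13 on the long bone arrays. Pdlim5, an actin-associated adaptor, had the highest at 0.89. The list mixes smooth muscle genes with genes of many cell types, such as Cnn3. Its even split is therefore not that of smooth muscle genes alone. L2 was the highest array for 14 of the 29 (35.2% of all genes). Among 24 measured genes of smooth muscle signalling and transcription, 19 were lower (45.4% of all genes), 10 of them with no overlap (21.4%), and the median was -0.20. Prkg1, the cyclic GMP-dependent kinase that relaxes smooth muscle, had the lowest difference at -0.84, and Mrtfa, a coactivator of serum response factor, the highest at 0.80. Without L2 these were -0.51 and 0.12, and the median of that list was -0.08. L2 was the highest array for 17 of the 24 (35.2% of all genes). No gene of either list passed the limma test over all genes (5 and 2 at an unadjusted p under 0.05, where 15.5% of all genes were).

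Most pericyte genes outside the 10 were lower in the trabecular area, as Rgs5 and Cspg4 were. Like Rgs5 and unlike Cspg4, most were also highest on L2. Of 21 measured genes 17 were lower in the trabecular area (45.4% of all genes) and 10 of these did not overlap (21.4% of all genes). The median difference was -0.29, or -0.13 without L2. L2 was the highest array for 15 of the 21 (35.2% of all genes). Pdgfrb, the receptor through which endothelium recruits pericytes and a marker of marrow stroma as well, read 0.0024 and -0.73 in the trabecular area and -0.0024 and 1.90 in the long bone area. Its difference of -1.31 was -0.36 without L2. Pde3a, a cyclic nucleotide phosphodiesterase, had the highest difference at 0.13. None of the 21 passed the limma test, and 1 had an unadjusted p under 0.05 (15.5% of all genes).

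Non-muscle actomyosin genes, which every cell uses, read the other way. Of 16 measured, 13 were higher in the trabecular area (9927 of all 18193 genes), 10 with no overlap (29.9% of all genes). Their median difference was 0.44, and 0.29 without L2. On L2 their median was -0.40, where that of the 10 contractile and mural genes was 0.80. Vasp, an actin-polymerising protein, had the highest difference at 1.12, and Actb, the cytoplasmic beta-actin, the lowest at -0.95. Without L2 these were 0.41 and -0.75. Actb read -0.34 and -0.39 on the trabecular arrays and 0.39 and 0.78 on the long bone arrays. None of these 16 genes passed the limma test either, with 6 at an unadjusted p under 0.05 (15.5% of all genes).

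**Figure D4:**
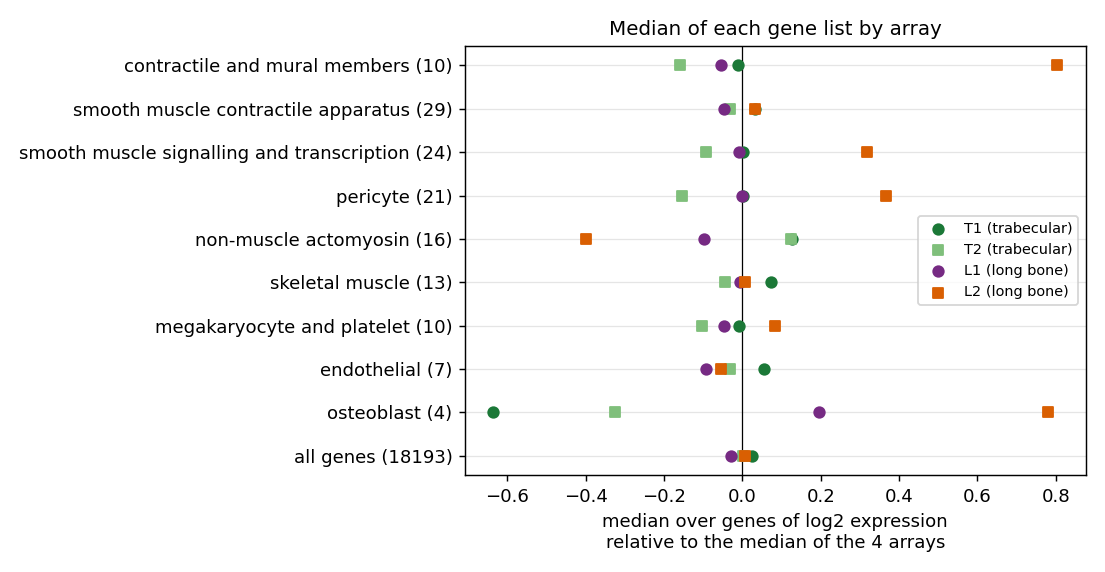
Median of the centred log2 values of each gene list (horizontal axis), with 1 point per array and the number of measured genes in brackets. On L2 the 10 contractile and mural genes sit at 0.80, pericyte genes at 0.37 and non-muscle actomyosin genes at -0.40, while all 18193 genes sit at 0.0073.

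Markers of other cells that share contractile proteins were read beside the members. Skeletal muscle genes, relevant to Des and Tpm2, had medians of 0.07 and -0.05 on T1 and T2, and of -0.0073 and 0.0073 on L1 and L2. Of these 13 genes, 2 were highest on L2, and the differences ran from -0.34 for the calcium pump Atp2a1 to 0.42 for the light chain Mylpf. Megakaryocytes and platelets, which carry CD31, an antigen the gate excludes, are rich in Myl9 and Mylk. L2 was the highest array for 7 of their 10 measured marker genes (35.2% of all genes), for some by as little as 0.01. Pf4, a platelet chemokine, read 4.37 there and between -0.09 and 0.0067 elsewhere. Ppbp, picked after its values were seen, read 2.25 there, whereas Itgb3 read -0.32. The mean over the 10 genes was 0.74 on that array, against -0.13 to 0.02 on the others. The median was 0.08.

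Of the 7 endothelial genes 2 were highest on L2, and the list's medians lay between -0.09 and 0.06 on all arrays. Their differences ran from -0.31 for Kdr to 0.56 for Tie1, both receptor kinases of endothelium. Of 7 listed osteoblast genes 3 were not analysed here, and the other 4 lay lower on T1 and T2 than on L1 and L2 (21.4% of all genes), from -2.00 for Ibsp to -0.38 for Sp7. Osteoblast medians were -0.64, -0.32, 0.20 and 0.78 in the array order used above, highest on L2. Ibsp, however, read 1.14 on L1 and 0.86 on L2, while the other 3 osteoblast genes were highest on L2. The median difference of the osteoblast genes was -1.20 with all arrays and -0.90 without L2. For the contractile and mural members these medians were -0.57 and -0.01, so the osteoblast difference rested less on L2. The part of platelet or bone-forming cells, and of the RNA quality of L2, in the members' values was not tested.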

How the data were processed

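Total RNA was purified with a commercial kit and labelled with biotin, per the labels' protocols, after an amplification that the design text states. The same text gives a human chip, whereas the probe set names and annotation are those of a mouse chip. The deposited values are log2 expression made with RMA, per the submitters' processing notes. For all 45101 probe sets the median over the 4 arrays is 0 (within 1e-06), so levels were removed. The log base is that of RMA, and the software of the centring is not given in the sources used here.

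Of these, 64 controls were left out. Of the other 45037, 34945 had 1 gene in the annotation, 932 several and 9160 none. Probe sets naming a single gene were averaged to that gene. The comparison used limma 3.58.1 under R 4.3.3 (lmFit, eBayes, 2 residual degrees of freedom, no block), trabecular minus long bone, Benjamini-Hochberg over all probe sets or all genes. The fit was tested on simulated data. These had the same spread on every array, so they cannot show how the fit handles an array such as L2. Alternatives were leaving out each array, quantile normalization, the replicate block, ordinary and robust variances, brighter probe sets and the widest probe set. The number of arrays limits precision.

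The members and lists were chosen with earlier results of these data known. Named genes are the 10 members, the extremes of each list, the sort antigens, and the 5 genes nearest to Acta2 and Rgs5. Ppbp was added after its values were seen. Those of Acta2 were not given, because its range of 0.86 was under the minimum of 1. Of the listed genes, 13 were not analysed here.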

Additional observations from a re-analysis of the deposited data

How the results depend on the processing

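With 1 array left out (T1 and T2 trabecular, L1 and L2 long bone), 0 to 1603 genes passed the adjusted threshold (1603 without L1, 1 without L2), and 0 probe sets did in each of the 4 fits. The median difference of the 10 genes ranged from -0.89 to -0.0088 (without L2). The differences ranged from -0.51 to 0.36 for Acta2, from -1.35 to 0.25 for Tagln, from -0.91 to 0.15 for Tpm2 and from -2.07 to 0.12 for Myl9. Each turned sign without L2, and Acta2 also without T2, at 0.10. Ordinary t statistics called 1 probe set and 1 gene, quantile normalization 1 gene, and the widest probe set per gene 2 genes. The cause was not tested. None of these was a member. With the replicate block 0 probe sets and 0 genes were called, at 5707 and 2450 with an unadjusted p under 0.05. Deviations of same-numbered arrays correlated at -0.18, so the crossed pairing was added after seeing the data, and it also called 0. The numbers were not taken to pair the samples. Of 96 member differences under an alternative, 85 kept their direction and their side of the threshold, 6 passed it (without L1) and 5 turned sign. Brighter probe sets alone could be had for 6 members, with a median of -0.62. The 2 arrays per area limit every value.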
